A study of Mus musculus with 4 samples.

Results

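Gfap-high astrocytes are astrocytes that carry several copies of the messenger RNA for Gfap, the glial fibrillary acidic protein that builds the intermediate filaments of this cell class. They were taken from droplet single-cell transcriptomes of 2 brain regions, hippocampus and sensory cortex, of wild-type mice that had been given DOCA-salt or a sham treatment. DOCA-salt combines the mineralocorticoid deoxycorticosterone acetate with salt and is a standard rodent model of salt-sensitive hypertension. There was 1 library per tissue and treatment, 4 in all, and the labels give 3 mice per group without saying whether their tissue was pooled. The groups were DOCA-salt and sham for each of the tissues, all of wild-type genotype, and the labels used here give no dose, duration or age. Groups follow the library titles, because the separate treatment field says sham for the cortex DOCA-salt library and DOCA-salt for the hippocampus sham library.

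A barcode was counted as a Gfap-high astrocyte when it met 4 conditions. It had 300 or more genes and no more than 20% of its UMIs from mitochondrial genes (unique molecular identifiers, each standing for 1 captured RNA molecule). It had a UMI of at least 4 of the 8 astrocyte genes Aqp4, Gja1, Gjb6, Ntsr2, Fgfr3, Slc4a4, Slc7a10 and Cldn10. It had a UMI of at most 2 of the 7 microglial, oligodendrocyte and endothelial genes P2ry12, Cx3cr1, Csf1r, Mog, Mag, Cldn5 and Flt1, and it had at least 3 Gfap UMIs. This gave 219 cells, made up of 70 in hippocampus DOCA-salt, 23 in hippocampus sham, 63 in cortex DOCA-salt and 63 in cortex sham. They were drawn from 6390 astrocytes that met the conditions other than the Gfap term, out of 44912 barcodes kept and 45315 deposited. The remaining 6171 astrocytes, with 0 to 2 Gfap UMIs, are called the other astrocytes.

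Gfap is low or hard to detect in most astrocytes of healthy grey matter and high in fibrous astrocytes of white matter, in astrocytes under the brain surface and along large vessels, in hippocampal astrocytes and in the radial stem cells of the dentate gyrus. Astrocytes that react to injury also raise it, with vimentin as its filament partner and with STAT3 as a known driver of its transcription. Myoc encodes myocilin, a secreted glycoprotein best known from the eye and found in the brain in astrocytes of the surface and white matter. Thbs4 encodes thrombospondin 4, a secreted matrix glycoprotein of astrocytes with roles in synapse formation and in cells of the subventricular zone. Aqp4 is the water channel of astrocyte endfeet.

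The start-site regions of Gfap, Myoc and Vim are shown because Myoc and Vim, summed over libraries, were highest in the members with the most Gfap UMIs. Most members carried no Myoc UMI. Each line holds 250 bases before to 50 bases after the RefSeq gene start on GRCm38.p6, written 5′ to 3′ on the gene's strand.
Gfap, chr11:102897151-102897450, minus strand, capitals marking the palindrome TTCNNNGAA, the core of STAT-type sites: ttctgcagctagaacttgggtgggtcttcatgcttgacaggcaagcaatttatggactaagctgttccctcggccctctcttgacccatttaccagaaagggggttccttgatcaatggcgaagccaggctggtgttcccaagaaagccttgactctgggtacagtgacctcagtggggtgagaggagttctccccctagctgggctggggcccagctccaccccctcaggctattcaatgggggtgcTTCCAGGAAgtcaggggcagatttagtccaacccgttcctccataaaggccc
Myoc, chr1:162638900-162639199, plus strand, capitals marking TATAAA: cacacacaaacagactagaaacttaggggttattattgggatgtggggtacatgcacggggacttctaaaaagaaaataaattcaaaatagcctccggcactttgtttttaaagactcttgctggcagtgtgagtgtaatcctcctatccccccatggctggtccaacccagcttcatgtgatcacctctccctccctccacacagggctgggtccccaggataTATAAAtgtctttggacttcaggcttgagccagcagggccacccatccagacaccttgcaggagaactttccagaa
Vim, chr2:13574061-13574360, plus strand, capitals marking TATAAA: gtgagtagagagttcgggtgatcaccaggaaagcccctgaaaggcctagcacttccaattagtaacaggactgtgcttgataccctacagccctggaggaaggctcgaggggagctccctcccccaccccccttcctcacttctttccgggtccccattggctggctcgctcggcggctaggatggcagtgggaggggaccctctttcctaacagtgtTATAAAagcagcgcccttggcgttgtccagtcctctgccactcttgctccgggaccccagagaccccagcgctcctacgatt
The STAT-type letters stood at bases 249 to 257 of the Gfap window and in 8.30% of all 32851 windows of this length. TATAAA, searched on both strands, stood at bases 225 to 230 of the Myoc window and 219 to 224 of the Vim window, and in 13.6% of all windows. The AP-1 type letters TGANTCA, held by 7.81% of all windows, were in none of the 3 windows. These matches are letters in a window and say nothing about binding.

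The Gfap-high cells were sequenced more deeply than the other astrocytes. Their median was 6939.5 UMIs in hippocampus DOCA-salt, 8643 in hippocampus sham, 8467 in cortex DOCA-salt and 8231 in cortex sham, against 4400, 4118.5, 4867.5 and 5479 in the other astrocytes of the same libraries. A fixed minimum of Gfap UMIs selects deeper barcodes, so the comparisons were repeated after thinning each cell to 3000 UMIs. Scrublet, a caller that scores barcodes against simulated mixtures of 2 cells, marked 4.63% to 6.83% of the barcodes of a library and 0 of the 219 members. From 94 to 105 barcode sequences were shared by a pair of libraries, and no barcode was a member in both. RNA of other cell classes was present in most members. Of the 7 excluded genes, 2, the most the rule admits, were seen in 45 of 70 members in hippocampus DOCA-salt and 13 of 23 in hippocampus sham. In cortex these were 39 of 63 in DOCA-salt and 32 of 63 in sham. Members with 0 excluded genes numbered 4, 1, 3 and 5 in those libraries. In Gfap-high cells 10 microglial genes summed to 1040.3 to 1464 CPM (UMIs of the genes per 1000000 UMIs, summed across the cells of a library), and 10 oligodendrocyte genes to 2152 to 4251 CPM, with no gene of either list at 0. The 8 neuronal genes summed to 11.3 to 54.1 CPM, with Slc17a7 and Rbfox3 at 0 in each library, and the 8 ependymal genes to 95.6 to 130.4 CPM. The hippocampus sham library stood apart. Its Gfap-high cells held 4211 CPM of Ttr, the choroid plexus transcript, against 38.7 CPM in hippocampus DOCA-salt, 17.1 CPM in cortex DOCA-salt and 13.7 CPM in cortex sham, and its other astrocytes held 4002 CPM. It is also the library with the fewest members, so the hippocampus comparison of treatments and the sham comparison of tissues rest on 23 cells of a library that stands apart and cannot be made without it.

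Gfap was spread very unevenly among the members, and these counts are a description because they chose the cells. In hippocampus DOCA-salt the cells had 3 to 90 Gfap UMIs, with a median of 3. In hippocampus sham they had 3 to 33, with a median of 4. In cortex DOCA-salt they had 3 to 117, with a median of 3, and in cortex sham 3 to 87, with a median of 4. Of the 219 cells, 107 (48.9%) stood at the minimum of 3 UMIs, 80 had 4 to 9, and 32 had at least 10. Those 32 cells held 62.0% of the members' Gfap UMIs. They numbered 8 in hippocampus DOCA-salt, 3 in hippocampus sham, 7 in cortex DOCA-salt and 14 in cortex sham, so each library had a thin upper tail. Just outside the minimum were 272 astrocytes with 2 Gfap UMIs. Cells at 3 UMIs had 126 CPM of Vim, 858 CPM of Aqp4 and 62.1 CPM of Myoc, and cells at 2 UMIs had 105 CPM of Vim, 777 CPM of Aqp4 and 11 CPM of Myoc. Summed over cells, Gfap was 1121, 924, 1022 and 1245 CPM in the Gfap-high cells of the DOCA-salt hippocampus, sham hippocampus, DOCA-salt cortex and sham cortex libraries, and 75.5, 87.5, 41.7 and 42.1 CPM in the other astrocytes of the same libraries.

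**Figure D1:**
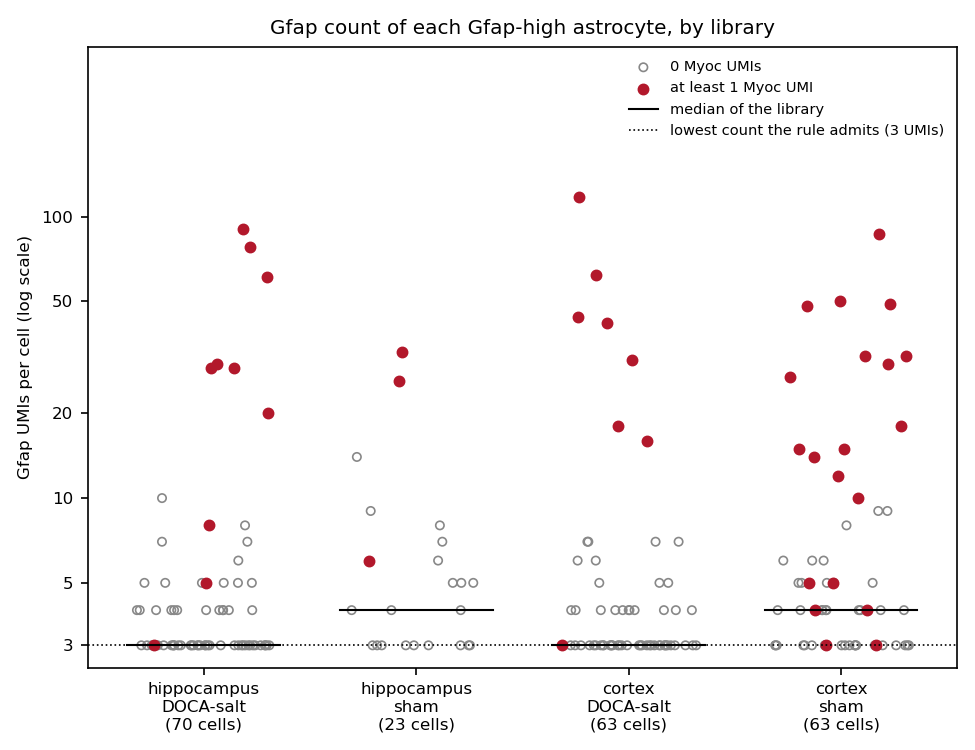
Gfap UMIs of each of the 219 Gfap-high astrocytes (log axis), by library; each point is 1 cell, and cells with at least 1 Myoc UMI are red. Many points sit at the minimum of 3 UMIs, and 30 of the 32 cells at 10 or more Gfap UMIs have a Myoc UMI.

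Myoc and Thbs4, the markers proposed for these cells that the rule did not use, were found in a minority of members. A Myoc UMI was seen in 10 of 70 Gfap-high cells in hippocampus DOCA-salt (14.3%), 3 of 23 in hippocampus sham (13%), 8 of 63 in cortex DOCA-salt (12.7%) and 20 of 63 in cortex sham (31.7%). The other astrocytes had 0.733%, 0.652%, 0.820% and 1.58% in those libraries. Cells of the excluded classes (at least 3 of the 7 excluded genes and at most 1 astrocyte gene) had 0.593%, 0.399%, 0.418% and 1.06%. The share in Gfap-high cells was above both in each library. The other astrocytes were above the excluded classes in each library, with exact binomial intervals that overlapped. Over the 4 libraries they had 1.07% (66 of 6171, 0.828% to 1.36%) against 0.562% (89 of 15850, 0.451% to 0.691%), without overlap. Of the other astrocytes, 4 had at least 5 Myoc UMIs. The excluded classes were chosen with at most 1 astrocyte gene, so their share cannot bound background RNA. A Thbs4 UMI was seen in 13 cells in hippocampus DOCA-salt (18.6%), 6 in hippocampus sham (26.1%), 0 of 63 in cortex DOCA-salt, which allows a share of up to 4.76% with 3 cells taken as the limit of a count of 0, and 9 in cortex sham (14.3%). The other astrocytes had 6.59%, 6.74%, 1.49% and 1.27%, and cells of the excluded classes 0.474%, 0.414%, 0.119% and 0.128%. Gfap was high by construction and Aqp4 was part of the rule, while most members carried neither Myoc nor Thbs4: 41 of 219 had a Myoc UMI, 28 a Thbs4 UMI and 13 both.

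The 32 cells with at least 10 Gfap UMIs differed from the rest of the members, and because this cut was chosen after seeing the counts, their values are a description. Myoc was 3177 CPM in them, 114 CPM at 4 to 9 Gfap UMIs, 62.1 CPM at 3, 6.80 CPM at 1 to 2 and 1.99 CPM at 0. By library, Myoc in the 32 cells was 2279, 800.4, 2210.3 and 4892 CPM in the DOCA-salt hippocampus, sham hippocampus, DOCA-salt cortex and sham cortex libraries, against 131, 12.1, 0 and 239 CPM at 4 to 9 Gfap UMIs. The 32 cells held 87.4% of the members' Myoc UMIs, and 30 of the 32 had a Myoc UMI. Fxyd6, a regulator of the sodium pump, was 845 CPM in these cells, against 34.4 CPM at 4 to 9 and 13.9 CPM at 3 Gfap UMIs. Slc38a1, a transporter of glutamine and other neutral amino acids, was 658 CPM, against 62.7 and 30.4 CPM in those lower classes. Both genes thus stepped up at the top class rather than climbing evenly. Vim, the filament partner of Gfap, was 739, 248 and 126 CPM at 10 or more, 4 to 9 and 3 Gfap UMIs. Igfbp5, a binding protein of insulin-like growth factors, was 848, 111 and 64.7 CPM over the same classes. Aqp4 in the 32 cells was 1985, 800.4, 1780.0 and 1884 CPM in the DOCA-salt hippocampus, sham hippocampus, DOCA-salt cortex and sham cortex libraries, against 772, 931, 961 and 972 CPM at 4 to 9 Gfap UMIs, so it was higher in the top class of 3 libraries and lower in the 3 cells of hippocampus sham.

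Several genes of grey matter astrocytes were low in the same 32 cells. Slc7a10, the small neutral amino acid exchanger Asc-1, was 51.2 CPM in them, and only 11 of the 32 cells had a UMI, against 366 CPM at 4 to 9, 474 CPM at 3 and 632 CPM at 0 Gfap UMIs. Igfbp2, another binding protein of insulin-like growth factors and a member of the fibrous list used below, was low there too, with 1 UMI in the 32 cells (3.66 CPM) against 356 CPM at 4 to 9 and 434 CPM at 3. The glutamate transporter Slc1a3 (GLAST) was 1075 CPM in the 32 cells, against 3644 CPM at 4 to 9, while the other glutamate transporter Slc1a2 (GLT-1) was 7049 CPM in them and 6522 CPM at 4 to 9. By library Slc1a2 in the 32 cells was 10769, 6563, 4518 and 5759 CPM in the DOCA-salt hippocampus, sham hippocampus, DOCA-salt cortex and sham cortex libraries, with no common direction against the lower classes. The gap junction protein Gjb6 (connexin 30) was 161 CPM, against 604 CPM, and the tight junction protein Cldn10 was 358 CPM, against 1331 CPM. Gpc5, a glypican, was 489.9 CPM, against 2179.6 CPM at 4 to 9 and 3085 CPM at 0, and was lowest in the top class of each library. Slc7a10, Gjb6, Cldn10 and Aqp4 belong to the astrocyte part of the rule, which asks only for a UMI of some of them. Median depth in the 32 cells was 9562.5 UMIs in hippocampus DOCA-salt, 9743 in hippocampus sham, 7334 in cortex DOCA-salt and 8192 in cortex sham, so these cells were no shallower than the members as a whole in hippocampus and were shallower in cortex.

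**Figure D2:**
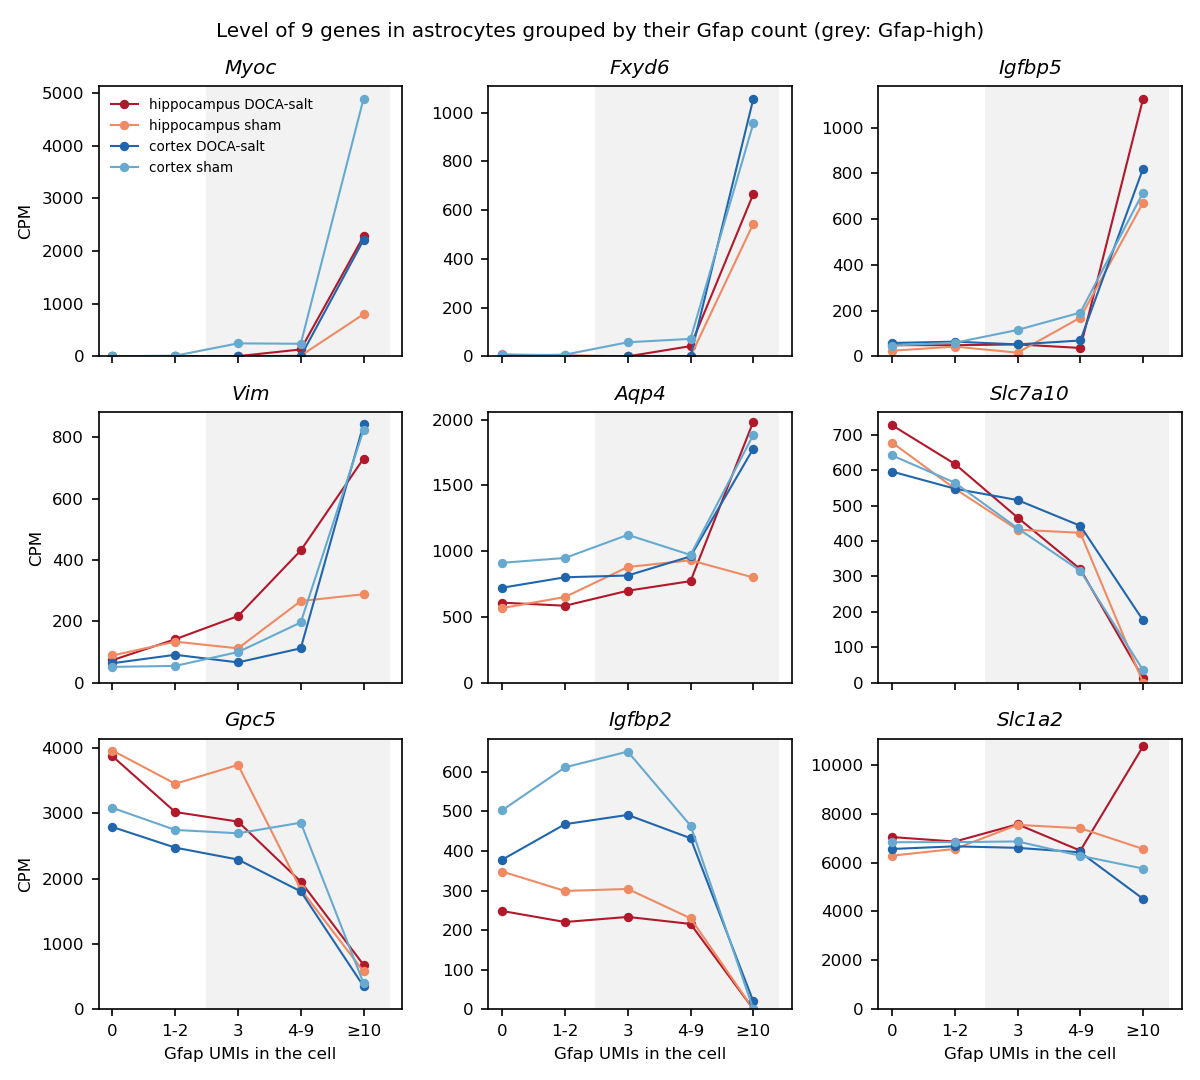
Level of 9 genes (CPM) in astrocytes grouped by their number of Gfap UMIs (0, 1 to 2, 3, 4 to 9 and at least 10), 1 line per library and grey for the Gfap-high classes. Over the 4 libraries together Myoc is 3177 CPM and Fxyd6 845 CPM in the class of at least 10 Gfap UMIs, which holds 3 to 14 cells of a library.

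As a share of all astrocytes, Gfap-high cells were most frequent in the hippocampus DOCA-salt library. They made up 7.87% of astrocytes in hippocampus DOCA-salt (70 of 889, exact binomial 95% interval 6.19% to 9.84%) and 4.76% in hippocampus sham (23 of 483, 3.04% to 7.06%). They made up 2.30% in cortex DOCA-salt (63 of 2745, 1.77% to 2.93%) and 2.77% in cortex sham (63 of 2273, 2.14% to 3.53%). With 1 library per group these shares carry no test, and intervals here and below cover counting error only. The share of DOCA-salt over that of sham gave a ratio of 1.65 for hippocampus (1.02 to 2.78) and one of 0.828 for cortex (0.575 to 1.19), so the interval excluded 1 in hippocampus and held it in cortex. The ratio of the hippocampus to the cortex share was 3.43 in DOCA-salt (2.41 to 4.90) and 1.72 in sham (1.02 to 2.81). With each cell thinned to 3000 UMIs before the rule, which then admitted 1210, 577, 3103 and 2724 astrocytes because thinning also removes UMIs of the excluded genes, the shares were 6.36%, 4.85%, 0.741% and 1.65% in the DOCA-salt hippocampus, sham hippocampus, DOCA-salt cortex and sham cortex libraries. The thinned DOCA-salt to sham ratio was 1.31 (0.841 to 2.10) for hippocampus and 0.449 (0.259 to 0.757) for cortex, and the hippocampus to cortex ratio was 8.59 in DOCA-salt and 2.94 in sham. With a minimum of 5 Gfap UMIs the shares were 2.25%, 2.28%, 0.583% and 1.19%, and the DOCA-salt to sham ratio in hippocampus was 0.988 (0.451 to 2.28). It was 1.08 (0.790 to 1.48) with a minimum of 2 and 1.45 (0.348 to 8.48) with a minimum of 10, so these intervals and the thinned one held 1. The hippocampus share of astrocytes was above the cortex share of the same treatment in each of these settings, with ratios of 3.53 (1.12 to 11.4) in DOCA-salt and 1.01 (0.186 to 3.61) in sham at a minimum of 10.

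The rule's astrocytes were themselves 7.91%, 4.30%, 24.2% and 20.5% of the kept barcodes of the DOCA-salt hippocampus, sham hippocampus, DOCA-salt cortex and sham cortex libraries. Over all kept barcodes the Gfap-high share was 0.623%, 0.205%, 0.555% and 0.568%, and the hippocampus to cortex ratio of the sham libraries, 0.360 (0.213 to 0.589), lay on the other side of 1. At least 1 Gfap UMI was seen in 33.6%, 32.7%, 19.8% and 21.7% of the rule's astrocytes, against 6.70%, 4.51%, 3.70% and 3.57% of the cells of the excluded classes. At least 3 Gfap UMIs were seen in 3 of 5060, 2 of 6764, 0 of 1676 and 0 of 2350 cells of the excluded classes. The counts of 0 allow shares of up to 0.179% and 0.128%, again with 3 cells as the limit. Those cells were chosen with at most 1 astrocyte gene, which leaves out barcodes with more astrocyte RNA. Their counts therefore cannot bound how often background RNA alone reaches the minimum. The rule also left out many Gfap-rich barcodes: of 779 kept barcodes with at least 3 Gfap UMIs, 516 had more than 2 excluded genes, 44 had too few astrocyte genes and 219 were members. Without a limit on excluded genes the shares were 15.6%, 9.59%, 3.23% and 3.42%.

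Gfap-high cells were compared with the other astrocytes of the same library, which asks what else was high or low where Gfap was high. UMI counts were summed per library and class, and edgeR's quasi-likelihood test with the library as a block (n = 4 libraries) was run over 10732 genes, leaving out Gfap and the other 15 genes of the rule. At an adjusted p under 0.05, 415 genes were higher in Gfap-high cells (3.87%) and 297 were lower (2.77%), with a median log2 fold change of -0.02 over all genes. The counts leaned on the cells with the most Gfap: without the 32 cells of at least 10 Gfap UMIs, 151 genes were higher and 163 lower. They leaned also on each library: there were 262 higher and 146 lower genes without hippocampus DOCA-salt, 289 and 200 without hippocampus sham, 280 and 175 without cortex DOCA-salt, and 270 and 185 without cortex sham. After thinning, 374 were higher and 471 lower, and 427 of the 712 genes (60.0%) were called again. With no library block 82 were higher and 32 lower. Each of the 24 genes named below by size kept its call in each of the 4 fits without 1 library. Of the 24, 22 kept it with DESeq2, 21 after thinning and 21 with no limit on excluded genes. With at least 6 astrocyte genes 19 kept it, with no library block 16, and with 0 excluded genes, where few members remained, 3. Libraries of 1 treatment may share mice, and a class cut by Gfap UMIs also differs in depth, which thinning alone takes into account.

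Of the 12 highest named genes, 5 encode secreted or matrix proteins. Myoc was 394, 147, 217 and 1269 CPM in the Gfap-high cells of the DOCA-salt hippocampus, sham hippocampus, DOCA-salt cortex and sham cortex libraries, against 1.60, 2.0, 2.40 and 4.81 CPM in the other astrocytes of the same libraries. The classes did not overlap, and the library log2 ratios averaged 7.17 ± 0.96 (SD, n = 4; log2 fold change 7.53, SE 0.19, adjusted p = 5.57e-23). Ecrg4, a secreted peptide precursor, was 38.7 to 147 CPM in Gfap-high cells and 0.979 to 66.0 CPM in the others (log2 fold change 3.04, SE 0.47, adjusted p = 8.00e-05), with ranges that overlapped between libraries but a higher value in Gfap-high cells of each. Igfbp5 was 209, 204, 133 and 279 CPM in Gfap-high cells of the 4 libraries in the same order, against 48.9, 31.0, 59.9 and 50.4 CPM in the others, without overlap (log2 fold change 2.07, SE 0.16, adjusted p = 3.25e-10). Tnc, the matrix protein tenascin C, was 48.3 to 108 CPM in Gfap-high cells and 17.0 to 24.7 CPM in the others (log2 fold change 1.83, SE 0.21, adjusted p = 4.56e-07). C4b, complement component 4, was 114 to 183 CPM in Gfap-high cells and 30.5 to 52.2 CPM in the others, again without overlap (log2 fold change 1.81, SE 0.17, adjusted p = 7.67e-09). C3, the complement component often used to mark reactive astrocytes, had 0 UMIs in the members.

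The other 7 encode membrane, metabolic, signalling and filament proteins. Fxyd6 was 116, 96.4, 103 and 262 CPM in the Gfap-high cells of the DOCA-salt hippocampus, sham hippocampus, DOCA-salt cortex and sham cortex libraries, against 3.72, 7.0, 3.35 and 4.41 CPM in the others, without overlap (log2 fold change 5.19, SE 0.23, adjusted p = 4.73e-16). Slc38a1 was 114 to 189 CPM in Gfap-high cells and 1.96 to 27.0 CPM in the others (log2 fold change 3.98, SE 0.31, adjusted p = 3.10e-10). Its level in the others was 23.4 and 27.0 CPM in the 2 hippocampus libraries and 4.30 and 1.96 CPM in the 2 cortex libraries, so the distance between classes was wider in cortex. Vim was 373, 215, 158 and 299 CPM in Gfap-high cells of the DOCA-salt hippocampus, sham hippocampus, DOCA-salt cortex and sham cortex libraries and 96.5, 105, 69.8 and 52.4 CPM in the others, with every Gfap-high value above every other value (log2 fold change 1.81, SE 0.15, adjusted p = 1.36e-09). Ass1, which makes the precursor of arginine, had a log2 fold change of 1.95, Prkag2, a subunit of the energy sensor AMPK, 2.30, Ppp1r1a, an inhibitor of protein phosphatase 1, 1.62, and Grin3a, an NMDA receptor subunit, 1.55. Ecrg4, Prkag2 and Grin3a lost their calls without the 32 cells of at least 10 Gfap UMIs. The remaining 9 genes of this group of 12 held theirs.

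**Figure D3:**
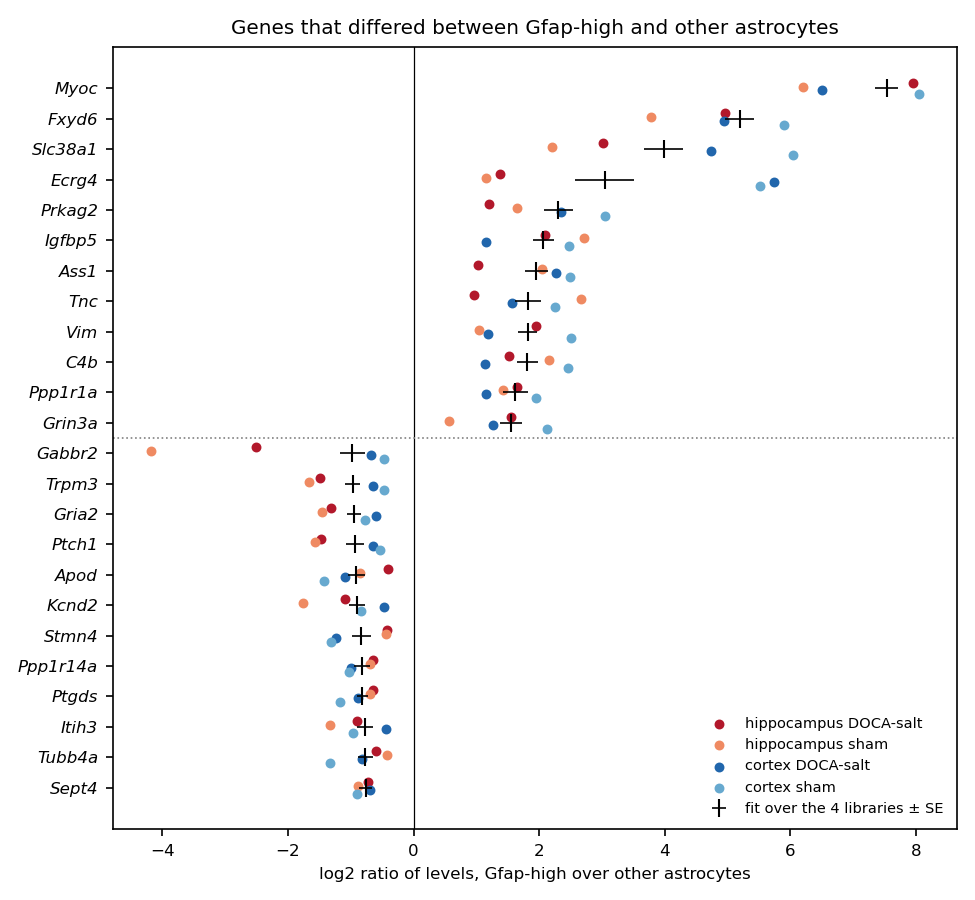
Log2 ratio of Gfap-high to other astrocytes for the 12 highest and 12 lowest genes named by rule, with 1 point per library and the edgeR log2 fold change ± SE. Every point of the upper group lies above 0 and every point of the lower group below 0, from 7.53 for Myoc to -0.97 for Gabbr2.

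Of 11 genes of a fibrous astrocyte list that were measured, 10 were higher in Gfap-high cells and 0 lower, with a median log2 fold change of 1.81. Beside Myoc, Igfbp5, Tnc and Vim these were Thbs4 (log2 fold change 1.82, SE 0.36, adjusted p = 0.00143, higher in 3 of 4 libraries), Cd44, a hyaluronan receptor (2.01), Id3 (1.32) and Id1 (1.30), which block differentiation factors, Fabp7, a fatty acid binding protein (0.93, higher in 3 of 4 libraries), and S100a6 (0.77). Igfbp2 was the exception, with a log2 fold change of -0.19 and an adjusted p of 0.321. Without the 32 cells of at least 10 Gfap UMIs 6 of 12 measured genes of this list were higher, with a median of 0.72, and Thbs4, Cd44, Id1 and S100a6 lost their calls. Cd44 and Thbs4 lost theirs also without cortex sham and with no library block, DESeq2 gave them no adjusted p and did not call Fabp7, and with 0 excluded genes Myoc alone of 8 was called. After thinning or with at least 5 Gfap UMIs Igfbp2 was lower. Myoc and Thbs4 were markers proposed with results of these data known, so their calls are no independent support for the label. Id3 was 588 to 669 CPM in Gfap-high cells and 196 to 310.5 CPM in the others, without overlap. Of 13 genes of the BMP, Id and Hes families 5 were higher, namely Id1, Id2, Id3, Id4 and Smad6, a BMP target. Of 9 neural stem cell genes 5 were higher, among them Vim, Hopx (0.73), Thrsp (0.69) and Fabp7, and Hopx and Thrsp are genes of dentate radial stem cells as well as of hippocampal astrocytes. Of 4 intermediate filament and lamina genes Vim and the cross-linker Plec (1.38) were higher. Thrsp lost its call after thinning, with at least 5 Gfap UMIs and with no library block, Hopx with no library block, Id4 without hippocampus sham, and Plec without the 32 cells.

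The 3 metallothioneins, which bind zinc and copper, were all higher, with log2 fold changes of 0.61 for Mt1, 0.59 for Mt2 and 0.57 for Mt3. Mt1 was 7501 to 10269.8 CPM in Gfap-high cells and 5592 to 6155 CPM in the others, with no overlap. In lists of reactive astrocytes fewer members passed the test. Of 7 measured pan-reactive genes 3 were higher, Vim, Cd44 and Serpina3n, an acute-phase protease inhibitor (0.73, adjusted p = 0.0207). Vim alone of these 3 kept its call without the 32 cells and with no library block. Serpina3n lost its call without each single library and with at least 2 Gfap UMIs, and Cd44 without cortex sham, and DESeq2 gave Cd44 and Serpina3n no adjusted p. Of 14 disease-associated astrocyte genes 5 were higher, Vim, C4b, Serpina3n, Apoe (0.39) and Clu (0.34), which carry lipids, and of 7 complement genes C4b, Clu and Cd59a. Apoe and Clu lost their calls after thinning, Clu also without either hippocampus library, and Cd59a without each library but hippocampus sham. Of 10 genes of the JAK and STAT3 pathway Stat3 itself (0.53, adjusted p = 0.0123) and the cytokine receptor subunit Il6st (0.89) were higher. Stat3 lost its call after thinning, with at least 5 Gfap UMIs, with no library block, with no limit on excluded genes and without either cortex library, and Il6st without the 32 cells and with at least 2 Gfap UMIs. None of 7 neurotoxic-type (A1) genes, 7 MHC class I genes, 11 interferon genes and 17 immediate early genes passed the test in either direction, nor did any of 12 endfoot and ion or water homeostasis genes. At an unadjusted p under 0.05, 2, 0, 3, 1 and 4 of them passed, and DESeq2 called 0. Those 5 lists had medians from -0.39 to 0.02. After thinning, Btg2, Klf4, Jun, Junb and Fos of the immediate early genes were lower, as were Hepacam, Atp1b2 and Dmd of the endfoot genes and Fbln5 of the A1 genes, while Ggta1 of the A1 genes and Ifitm3 of the interferon genes were higher. With at least 5 Gfap UMIs Fos, Ggta1 and Ifitm3 were higher, and the endfoot gene Hepacam was lower. With no limit on excluded genes 19 of 22 immediate early genes, 5 of 11 A1 genes, 4 of 11 MHC class I genes and 2 of 16 interferon genes were lower. In that setting 1246 of the 14098 genes tested were lower. Of 12 glycolysis and hypoxia genes Aldoc, Gapdh and Ldha were higher, and Slc2a1, the glucose carrier GLUT1, and Ndrg1 were lower. After thinning Slc2a1 alone was called. It lost its call without hippocampus DOCA-salt, without cortex sham and without the 32 cells, and Gapdh without each library but cortex sham.

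Of 14 protoplasmic astrocyte genes, typical of grey matter, 7 were lower in Gfap-high cells and Glul, glutamine synthetase, was higher (0.27), with a list median of -0.33. After thinning 10 were lower, with no library block 1, Trpm3, and with no limit on excluded genes 2, with 2 higher. Glul lost its call after thinning, with at least 5 Gfap UMIs, with no library block and without each library but cortex sham, and Il33 without the 32 cells and without each library but cortex DOCA-salt. Among the lower ones were the GABA transporter Slc6a11 (-0.56), the phagocytic receptor Mertk (-0.45), Gpc5 (-0.55), Luzp2 (-0.63), the cation channel Trpm3 and the cytokine Il33 (-0.56). Among the 12 lowest named genes, Gria2, an AMPA receptor subunit, was 286, 255, 327 and 228 CPM in the Gfap-high cells of the DOCA-salt hippocampus, sham hippocampus, DOCA-salt cortex and sham cortex libraries, against 716, 701, 493 and 388 CPM in the others, and the classes did not overlap (log2 fold change -0.95, SE 0.11, adjusted p = 7.95e-07). Gabbr2, a GABA-B receptor subunit, was 15.5, 5.67, 116 and 101 CPM in Gfap-high cells of those libraries, against 88.3, 103, 185 and 141 CPM in the others, lower in each library and lowest in the 2 hippocampus libraries (log2 fold change -0.97, SE 0.20, adjusted p = 0.00182). Gabbr2 lost its call with DESeq2, with no library block, with no limit on excluded genes and with 0 excluded genes. Trpm3 was 340.3 to 545 CPM in Gfap-high cells against 572 to 1343 CPM in the others (log2 fold change -0.97, SE 0.13, adjusted p = 4.22e-06). Kcnd2, a potassium channel subunit, had a log2 fold change of -0.91, Ptch1, the Hedgehog receptor, -0.93, and Itih3, a carrier of hyaluronan, -0.77. The glutamate transporters did not pass the test, although Slc1a3 was lower after thinning and with at least 5 Gfap UMIs, with 6339.9 to 7659 CPM of Slc1a2 in Gfap-high cells and 6386 to 6989 CPM in the others, and 2777 to 3551 CPM of Slc1a3 in Gfap-high cells against 3395 to 4191 CPM in the others. Of 7 junction genes Cdh2, Cdh20 and Ctnnd2 were lower, of which 0 were called without the 32 cells, with no library block or without hippocampus DOCA-salt, and Cdh20 alone without each of the other libraries.

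Transcripts of other cell classes were lower in Gfap-high cells too. All 10 listed oligodendrocyte genes fell, with a summed level of 2152 to 4251 CPM in Gfap-high cells and 4246 to 6589 CPM in the others, as did the 4 haemoglobin genes measured. Apod, Stmn4, Ppp1r14a, Ptgds, Tubb4a and Sept4, 6 of the 12 lowest named genes, are also known from oligodendrocytes, and their log2 fold changes ran from -0.91 to -0.76. After thinning each cell to 3000 UMIs, 6 of the 10 oligodendrocyte genes were lower, and Stmn4, Ppp1r14a and Tubb4a lost their calls. Of the 10, 6 were lower without the cortex DOCA-salt library, 4 with a minimum of 6 astrocyte genes and 3 with no library block. The rule limits the number of excluded genes seen in a barcode, Mog and Mag among them, and the Gfap-high cells were deeper. Levels of oligodendrocyte genes are therefore not independent of the rule. The excluded genes themselves summed to 256 to 374 CPM in Gfap-high cells and 502 to 629 CPM in the others. The part of the rule, of depth and of foreign RNA in the 10 listed genes and in the 6 named ones was not tested.

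DOCA-salt was compared with sham within the Gfap-high cells of each tissue, 70 against 23 cells in hippocampus and 63 against 63 in cortex. Values within a tissue are ratios of CPM with exact 95% intervals of counting error, which compare 2 libraries and not the treatments. The interval lay above 1 for 3.84% and below 1 for 4.2% of genes in hippocampus, and for 5.22% and 5.01% in cortex. Of genes with at least 20 UMIs in a pair, 17.5% were at least 1.5-fold higher and 11.2% at least 1.5-fold lower in hippocampus DOCA-salt than in hippocampus sham, and 11.6% were higher and 10.5% lower in cortex DOCA-salt than in cortex sham. A test between treatments came from edgeR's quasi-likelihood fit over the 4 libraries with tissue as a block, which was added after the data had been seen (2 DOCA-salt and 2 sham libraries, 7497 genes). It has 1 residual degree of freedom, its spread is shared across genes, libraries of 1 treatment may share mice, and without any 1 library no residual degree of freedom is left. At an adjusted p under 0.05, 12 genes were higher in DOCA-salt (0.16%) and 17 lower (0.227%), and 556 had an unadjusted p under 0.05. After thinning, which left 2065 genes to test, 3 were higher and 2 lower, and with at least 5 Gfap UMIs 2 and 0. Immediate early genes, which cells switch on within minutes of a stimulus and also during tissue dissociation, stood above the shares of 1.5-fold higher genes given here. Of 17, 14 were at least 1.5-fold higher in hippocampus DOCA-salt and 10 in cortex DOCA-salt, with medians of 0.88 and 0.60 on the log2 scale against 0.03 and 0.02 over all genes. Their summed level was 4074 CPM in hippocampus DOCA-salt against 1779.7 CPM in hippocampus sham (ratio 2.29, 2.03 to 2.59), and 2866 CPM in cortex DOCA-salt against 1784 CPM in cortex sham (ratio 1.61, 1.48 to 1.75). In the fit over 4 libraries 3 of the 17, Fos, Btg2 and Dusp1, were higher, 0 were lower and 11 had an unadjusted p under 0.05. With thinned cells the list ratios were 1.41 in hippocampus and 1.06 in cortex and 0 of 9 genes passed that test, and with no limit on excluded genes the ratios were 1.18 and 1.12, with Fos higher and Atf3 lower. RNA of other cells differed too: the oligodendrocyte list had ratios of 0.623 in hippocampus and 0.972 in cortex, and the microglia list 1.20 and 1.24, and their part in the results below was not tested.

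Fos, the best known of these genes, was 876 CPM in hippocampus DOCA-salt against 261 CPM in hippocampus sham (3.36, 2.48 to 4.66), and 628 CPM in cortex DOCA-salt against 223 CPM in cortex sham (2.82, 2.27 to 3.52). The other astrocytes had ratios of 2.58 and 2.61, and cells of the excluded classes 1.34 and 1.03. A single cell gave 112 of the 453 Fos UMIs in hippocampus DOCA-salt. Thinning, which left 23 members in cortex DOCA-salt and 45 in cortex sham, put the cortex log2 ratio at -0.28, below sham. In the fit over both tissues Fos was higher in DOCA-salt (log2 fold change 1.57, SE 0.16, adjusted p = 1.08e-06), with an adjusted p of 0.953 after thinning. Junb was 476 CPM in hippocampus DOCA-salt against 142 CPM in hippocampus sham (3.36, 2.22 to 5.29), and 245 CPM in cortex DOCA-salt against 191 CPM in cortex sham (1.28, 0.979 to 1.69), where the interval held 1. Btg2, an antiproliferative gene, was 271 against 79.3 CPM in DOCA-salt and sham of hippocampus (3.41, 1.97 to 6.40), and 274 against 150.3 CPM in those of cortex (1.82, 1.37 to 2.44). Dusp1, a phosphatase of MAP kinases, had ratios of 2.37 in hippocampus and 1.83 in cortex, and a thinned log2 ratio of -0.044 in hippocampus. Ccn1, a secreted matrix-associated protein, was 143 against 22.7 CPM in hippocampus (6.31, 2.36 to 23.8) and 162 against 74.2 CPM in cortex (2.18, 1.47 to 3.29), with 37 of 74 UMIs of hippocampus DOCA-salt in 1 cell. Btg2 (1.11, adjusted p = 0.0104), Dusp1 (1.0, adjusted p = 0.0254) and Ccn1 (1.43, adjusted p = 0.0127) were higher in the fit over both tissues, and Junb (0.88, adjusted p = 0.0856) did not pass. In the other astrocytes these 5 genes had DOCA-salt to sham ratios from 2.03 for Junb to 2.58 for Fos in hippocampus, and from 1.25 for Ccn1 to 2.61 for Fos in cortex.

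Of 9 measured genes of a corticosteroid list, those lower in DOCA-salt by 1.5-fold or more numbered 5 in hippocampus and 4 in cortex, and 1 was higher in hippocampus. Tsc22d3, the leucine zipper GILZ induced by glucocorticoids, was 153 CPM in hippocampus DOCA-salt against 379.7 CPM in hippocampus sham (0.402, 0.287 to 0.566), and 148 CPM in cortex DOCA-salt against 373 CPM in cortex sham (0.398, 0.302 to 0.521). In the fit over both tissues Tsc22d3 was lower in DOCA-salt (log2 fold change -1.35, SE 0.18, adjusted p = 9.66e-05), with an adjusted p of 0.177 after thinning and 0.155 with at least 5 Gfap UMIs. It was the only one of 11 corticosteroid genes tested there to pass. Klf9 (-0.75, adjusted p = 0.0630) and Zbtb16 (-2.11, adjusted p = 0.0526) did not pass. Klf9, another glucocorticoid target, was 172 against 312 CPM in hippocampus (0.552, 0.390 to 0.787) and 209 against 324 CPM in cortex (0.646, 0.503 to 0.827). Zbtb16 was 27.1 against 56.7 CPM in hippocampus, with an interval of 0.197 to 1.20 that held 1, and 3.81 against 58.6 CPM in cortex (0.0650, 0.00753 to 0.256), from 2 UMIs in cortex DOCA-salt. The corticosteroid list summed to 800.5 CPM in hippocampus DOCA-salt against 1258 CPM in hippocampus sham (ratio 0.636, 0.539 to 0.752). In cortex it summed to 797 CPM in DOCA-salt against 1173 CPM in sham (0.680, 0.598 to 0.771). The median log2 ratio of its 9 measured genes was -0.86 in hippocampus and -0.12 in cortex, against 0.03 and 0.02 over all genes. The lower cortex sum came largely from Tsc22d3 and Klf9, and the list as a whole was little lower there. The other astrocytes showed Tsc22d3 ratios of 0.355 and 0.291, and cells of the excluded classes 0.796 and 0.609, so the level was lower in DOCA-salt in those cells as well.

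Other genes stood on the same side in both tissues. In the fit over both tissues Serpina3n (log2 fold change 2.47, SE 0.41, adjusted p = 0.00149), Slc15a2 (1.08, adjusted p = 0.00149) and Rabgef1 (2.0, adjusted p = 0.00524) were higher in DOCA-salt, and Pde10a (log2 fold change -2.49, SE 0.32, adjusted p = 4.00e-05), Mdga2 (-0.91, adjusted p = 0.00101), Cpq (-1.01, adjusted p = 0.0317) and Mertk (-0.71, adjusted p = 0.0443) were lower. Agt (0.59, adjusted p = 0.118), Oxr1 (1.25, adjusted p = 0.0555) and Lsamp (-0.48, adjusted p = 0.0629) did not pass. After thinning Serpina3n passed (adjusted p = 0.0107), Slc15a2, Mdga2, Cpq and Mertk did not, and Rabgef1 and Pde10a were too low to be tested. None of these 7 genes passed with at least 5 Gfap UMIs. Agt, the precursor of angiotensin that brain astrocytes make, was 532 CPM in hippocampus DOCA-salt against 323 CPM in hippocampus sham (1.65, 1.23 to 2.23), and 514 CPM in cortex DOCA-salt against 349 CPM in cortex sham (1.47, 1.21 to 1.79), but its thinned cortex log2 ratio was -0.29. Serpina3n was 88.9 against 17.0 CPM in hippocampus (5.23, 1.68 to 26.3) and 81.8 against 13.7 CPM in cortex (5.99, 2.67 to 15.8). Its ratios were 7.97 and 17.0 in the other astrocytes and 9.20 and 24.3 in cells of the excluded classes. Slc15a2, a peptide transporter, had ratios of 2.01 and 2.24 in Gfap-high cells, and 10.4 and 6.89 in cells of the excluded classes. Rabgef1, which activates Rab5 on endosomes, had ratios of 4.35 and 3.99, and Oxr1, an oxidation resistance gene, 3.92 and 2.14. On the lower side, Pde10a, a cyclic nucleotide phosphodiesterase, was 32.9 against 204 CPM in hippocampus (0.161, 0.0849 to 0.294) and 19.0 against 89.8 CPM in cortex (0.212, 0.0954 to 0.426). The adhesion genes Mdga2 (0.588 and 0.506) and Lsamp (0.732 and 0.733), the peptidase Cpq (0.484 and 0.521) and Mertk (0.616 and 0.628) had ratios below 1 in hippocampus and in cortex.

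Some genes were named from the comparison in 1 tissue. Apoc1, an apolipoprotein, was 108 CPM in hippocampus DOCA-salt against 17.0 CPM in hippocampus sham (6.37, 2.07 to 31.8), but 30 of its 56 UMIs in hippocampus DOCA-salt came from 1 cell. Cryab, a small heat shock protein, was 400.2 against 816 CPM in hippocampus (0.490, 0.395 to 0.611), with 0.565 in the other astrocytes, and Cdk19, a kinase of the Mediator complex, 96.7 against 238 CPM (0.406, 0.264 to 0.627), with 0.771. Their cortex ratios, 0.877, 0.913 and 1.02 for Apoc1, Cryab and Cdk19, had intervals that held 1. In cortex, Rassf1, a scaffold of Hippo signalling, was 83.7 CPM in DOCA-salt against 23.4 CPM in sham (3.57, 1.86 to 7.43), with 1.27 in the other astrocytes. Nkain2, which binds a sodium pump subunit, was 24.7 against 129 CPM in DOCA-salt and sham of cortex (0.192, 0.0972 to 0.351), and S100a4, a calcium-binding protein, 24.7 against 97.6 CPM (0.253, 0.126 to 0.474). Nkain2 was lower also in the fit over both tissues (-2.05, adjusted p = 0.00149). Its interval lay below 1 in hippocampus too, but its hippocampus log2 ratio was 1.13 after thinning, above sham. A single cell gave 18 of the 66 Nkain2 UMIs and 18 of the 50 S100a4 UMIs of cortex sham.

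**Figure D4:**
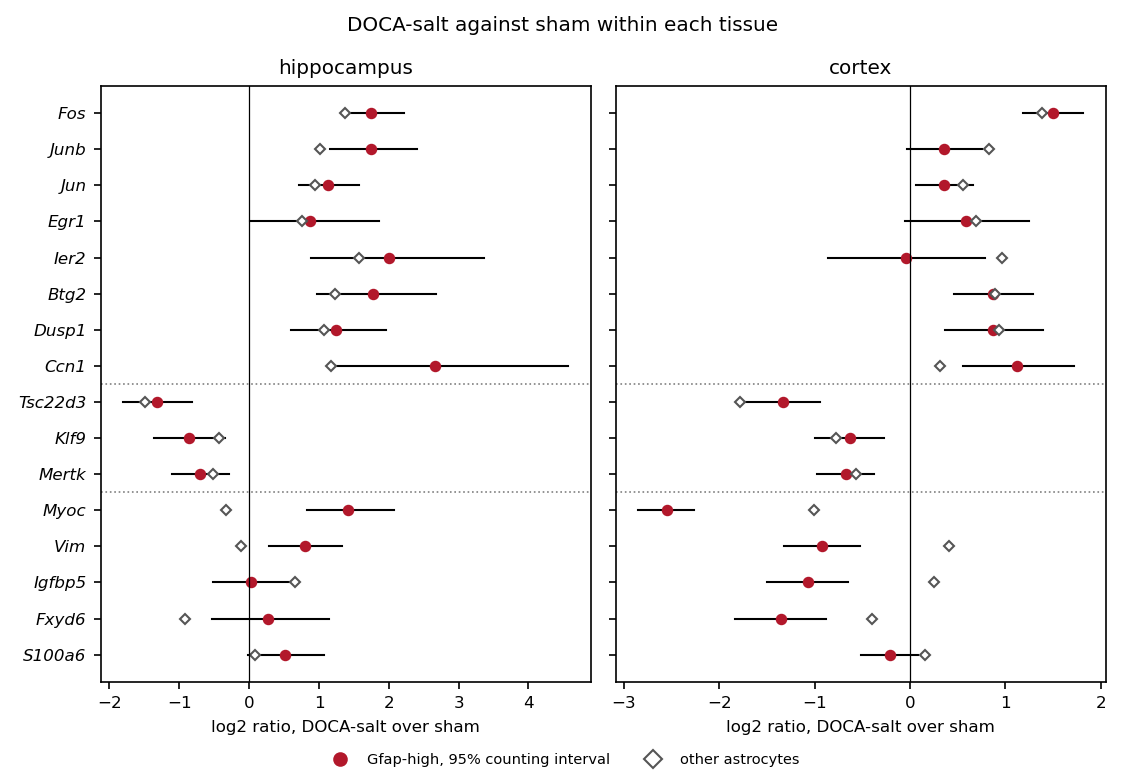
Log2 ratio of DOCA-salt to sham of 16 genes in Gfap-high astrocytes of hippocampus and cortex, with exact 95% intervals of counting error, and the same ratio in the other astrocytes as diamonds. Fos lies above 0 and Tsc22d3 below 0 in both tissues, while Myoc and Vim lie above 0 in hippocampus and below 0 in cortex.

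Myoc and Vim stood on opposite sides in the tissues. Myoc was 394 CPM in hippocampus DOCA-salt against 147 CPM in hippocampus sham (2.68, 1.77 to 4.20), and 217 CPM in cortex DOCA-salt against 1269 CPM in cortex sham (0.171, 0.139 to 0.209). Vim was 373 against 215 CPM in hippocampus (1.73, 1.22 to 2.52) and 158 against 299 CPM in cortex (0.529, 0.400 to 0.695). Thbs4 was 69.6 against 125 CPM in hippocampus (0.558, 0.320 to 0.996), and in cortex DOCA-salt it had 0 UMIs against 56.6 CPM in cortex sham, at least 9.92-fold lower with 3 UMIs taken as the limit of a count of 0. The fibrous list summed to 2982 CPM in hippocampus DOCA-salt against 2386 CPM in hippocampus sham (ratio 1.25, 1.12 to 1.40), and to 2761 CPM in cortex DOCA-salt against 4472 CPM in cortex sham (0.617, 0.578 to 0.660). Cells with at least 10 Gfap UMIs were 8 of 70 and 3 of 23 in hippocampus DOCA-salt and sham, and 7 of 63 and 14 of 63 in cortex DOCA-salt and sham. Without them the list ratios were 1.11 and 0.859, and thinning put the hippocampus list ratio at 0.866. In hippocampus the log2 ratio was -0.029 for Myoc and -0.17 for Vim after thinning, and -0.87 and -0.18 with no limit on excluded genes, so the hippocampus direction of both genes did not hold across settings. In the fit over both tissues 0 of 10 fibrous genes passed the test and 4 had an unadjusted p under 0.05, with -1.12, adjusted p = 0.396 for Myoc, -0.19, adjusted p = 0.927 for Vim and -1.70, adjusted p = 0.118 for Thbs4. DESeq2 was not run on this fit. Gfap itself, which chose the cells, was 1121 against 924 CPM in hippocampus and 1022 against 1245 CPM in cortex.

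Hippocampus was compared with cortex within each treatment. At least 1.5-fold higher in hippocampus were 10.6% of genes in DOCA-salt and 10.7% in sham, and at least 1.5-fold lower were 13.4% and 18.3%. The interval of the ratio lay above 1 for 5.5% and below 1 for 7.21% of genes in DOCA-salt, and for 3.62% and 4.5% in sham. In edgeR's quasi-likelihood fit over the 4 libraries with treatment as a block, with the limits given above, 41 genes were higher in hippocampus (0.547%) and 24 lower (0.32%) of 7497, and 703 had an unadjusted p under 0.05. After thinning 4 were higher and 4 lower of 2065. Hopx and Thrsp, known from dentate stem cells and hippocampal astrocytes, were higher in hippocampus by this test (Hopx log2 fold change 1.64, SE 0.16, adjusted p = 4.76e-07; Thrsp log2 fold change 1.5, SE 0.16, adjusted p = 1.91e-06) and again after thinning. Hopx, a homeodomain-only cofactor, was 1131 CPM in hippocampus DOCA-salt against 466 CPM in cortex DOCA-salt (2.43, 2.09 to 2.83), and 1099.5 CPM in hippocampus sham against 277 CPM in cortex sham (3.97, 3.18 to 4.96). Thrsp, a regulator of lipid synthesis, was 592 against 223 CPM in DOCA-salt (2.66, 2.14 to 3.32) and 691 against 246 CPM in sham (2.81, 2.17 to 3.64). The other astrocytes had ratios of 2.25 and 2.28 for Hopx, and 1.74 and 1.45 for Thrsp. Hsd11b1, which regenerates active glucocorticoid, was 451 against 97.0 CPM in DOCA-salt (4.64, 3.42 to 6.42) and 283 against 111 CPM in sham (2.55, 1.71 to 3.79), and passed the test over both treatments (log2 fold change 1.90, SE 0.21, adjusted p = 2.53e-06) and again after thinning. The neural stem cell list summed to 2929 against 1671 CPM in DOCA-salt (ratio 1.75, 1.61 to 1.91) and 2414 against 1848 CPM in sham (1.31, 1.16 to 1.47). Of its proliferation genes, Mki67 had 0 and Top2a 2 UMIs in the members.

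Tcf4, a basic helix-loop-helix factor (1.83 in DOCA-salt and 1.67 in sham), Ndufc2, a subunit of respiratory complex I (1.63 and 1.54), Gstp1, a glutathione transferase (1.88 and 2.59), and Pantr1, a noncoding RNA (1.44 and 1.70), were also higher in hippocampus and passed the test over both treatments, with adjusted p of 9.92e-04, 0.00854, 0.0248 and 0.0132, and Tcf4 passed after thinning too. Mt1 was 10138 against 7501 CPM in DOCA-salt (1.35, 1.30 to 1.41) and 10269.8 against 7709.7 CPM in sham (1.33, 1.26 to 1.41), with ratios of 1.04 and 0.930 in the other astrocytes and 0.48, adjusted p = 0.0283 in the fit over both treatments. The 3 metallothioneins summed had similar ratios in both treatments, 1.32 in DOCA-salt and 1.32 in sham, and 0 of the 3 passed 1.5-fold. Lower in hippocampus was Gabbr2, at 15.5 against 116 CPM in DOCA-salt (0.133, 0.0551 to 0.280) and 5.67 against 101 CPM in sham (0.0558, 0.00139 to 0.325, from 1 UMI in hippocampus sham), with 0.476 and 0.725 in the other astrocytes. Lmo1, a LIM-domain transcription cofactor (0.231 and 0.176), Luzp2 (0.419 and 0.476), Igfbp2 (0.451 and 0.499), Nupr1, a stress-induced nuclear protein (0.330 and 0.219), Paqr7, a membrane progestin receptor (0.555 and 0.469, with a thinned log2 ratio of 0.15 in DOCA-salt), Btbd17 (0.609 and 0.420), and Ephx1, an epoxide hydrolase (0.319 and 0.316), were lower as well. These 8 genes passed the test over both treatments, with log2 fold changes from -3.07 for Gabbr2 (adjusted p = 4.59e-05) to -0.85 for Btbd17 (adjusted p = 0.0218), and 0 passed after thinning, where Gabbr2, Lmo1, Nupr1 and Ephx1 were too low to be tested. The oligodendrocyte list was also higher in hippocampus, by 1.23 in DOCA-salt and 1.92 in sham, and its part in these results was not tested.

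In DOCA-salt alone the largest of the remaining ratios were those of Msx1, a homeobox factor, at 88.9 CPM in hippocampus against 7.61 CPM in cortex (11.7, 4.27 to 44.7), Eya1, a transcription cofactor, at 87.0 against 19.0 CPM (4.57, 2.27 to 10.2), and Aldh1a1, which makes retinoic acid, at 191 against 51.4 CPM (3.73, 2.41 to 5.93). In sham their ratios were 1.81, 1.31 and 1.80, and only that of Aldh1a1 had an interval above 1. Hes5, a Notch effector, was 207 against 771 CPM in hippocampus and cortex of DOCA-salt (0.268, 0.215 to 0.333) and 249 against 379 CPM in those of sham (0.659, 0.464 to 0.918). Mfge8, a bridging protein of phagocytosis, had ratios of 0.388 in DOCA-salt and 0.736 in sham. In the fit over both treatments Msx1 (2.47, adjusted p = 0.0126) and Aldh1a1 (1.40, adjusted p = 0.00187) were higher in hippocampus, Hes5 (-1.36, adjusted p = 6.33e-04) and Mfge8 (-0.87, adjusted p = 0.00287) lower, and 0 of the 4 passed after thinning, where Msx1 was too low to be tested. With a minimum of 5 Gfap UMIs the sham log2 ratios of Hes5 and Mfge8 were 1.07 and 0.31, on the other side. Named from the sham pair, Enpp2, the lysophospholipase autotaxin, was 209.7 CPM in hippocampus against 60.5 CPM in cortex (3.47, 2.09 to 5.78), Ptgds, prostaglandin D synthase, 2743 against 1280.4 CPM (2.14, 1.90 to 2.41), and Fabp7 317 against 843 CPM (0.376, 0.280 to 0.498). The interval of Enpp2 lay above 1 in DOCA-salt too, but its log2 ratio there was -0.22 after thinning. Enpp2 and Ptgds are also choroid plexus and oligodendrocyte transcripts, and the hippocampus sham library is the one with 4211 CPM of Ttr. Enpp2 (1.38, adjusted p = 0.0132) and Ptgds (0.72, adjusted p = 0.0134) were higher in hippocampus in the fit over both treatments, as were 3 of 10 oligodendrocyte genes and Ttr, and Fabp7 (-0.56, adjusted p = 0.255) did not pass.

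**Figure D5:**
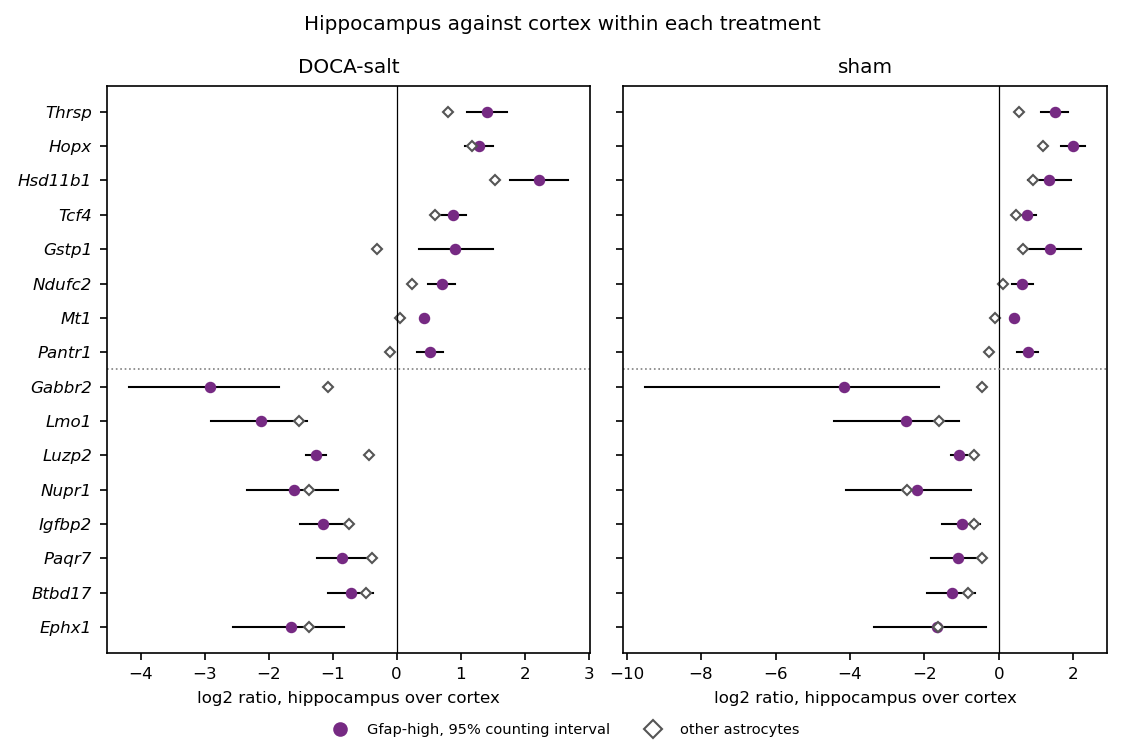
Log2 ratio of hippocampus to cortex of the 8 highest and 8 lowest genes named for both treatments together in Gfap-high astrocytes, with exact 95% intervals of counting error, and the same ratio in the other astrocytes as diamonds. Hopx, Thrsp and Hsd11b1 lie above 0 and Gabbr2, Lmo1 and Luzp2 below 0 in DOCA-salt and in sham.

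Before thinning, Myoc and the fibrous list had no common direction in the 2 treatments. The hippocampus to cortex ratio of Myoc was 1.82 in DOCA-salt and 0.116 in sham, and did not pass the test over both treatments (-0.74, adjusted p = 0.575). After thinning to 3000 UMIs Myoc passed that test as lower in hippocampus, with a log2 fold change of -0.99. The log2 ratio of Myoc in DOCA-salt was -0.50 after thinning and -0.28 with no limit on excluded genes, on the same side as in sham. The ratio of the summed list was 1.08 in DOCA-salt and 0.534 in sham. Thbs4, at 0 UMIs in cortex DOCA-salt, was at least 12.2-fold higher in hippocampus DOCA-salt, and it passed the test over both treatments (2.10, adjusted p = 0.0216). It passed again with at least 2 Gfap UMIs but not with at least 5, and after thinning it was too low to be tested. The other astrocytes also carried Thbs4 more often in hippocampus than in cortex, at 6.59% against 1.49% in DOCA-salt and 6.74% against 1.27% in sham. Thinning or leaving out the 32 cells of at least 10 Gfap UMIs put the DOCA-salt list ratio at 0.722 or 0.974. Over the astrocytes of a library after thinning to 3000 UMIs, the genes whose counts followed Gfap most closely were Dbi, Mt1, Aldoc, Mt3 and Slc38a1, by the lowest Spearman correlation of the 4 libraries (0.135, 0.115, 0.0989, 0.0913 and 0.0848) among 8959 genes. These correlations over 577 to 3103 cells are weak, share the depth and library of the cells, and are given as a description.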

How the data were processed

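Single-cell RNA of hippocampus and sensory cortex was captured in droplets, and libraries were made with the SeekOne DD 3′ kit, per the labels. Each deposited matrix gives UMI counts per gene and barcode. Tools listed in the submitters' processing notes are STAR, Subread, fastp and Seurat, with the build GRCm38, and their roles and versions are not given in the sources used here. The counts were used as deposited, with 0 columns of other samples. A barcode was kept if it had 300 or more genes and no more than 20% of UMIs from mitochondrial genes. Doublets were called with Scrublet (scanpy 1.11.5, expected rate 0.08) as an alternative and not removed. UMIs were summed per library over Gfap-high cells (176439 to 525557 UMIs) and over other astrocytes.

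The classes were compared with edgeR 4.0.16 (R 4.3.3; TMM, filterByExpr, glmQLFit and glmQLFTest, library as a block, Benjamini-Hochberg adjustment, threshold 0.05), with DESeq2 1.42.0 as an alternative. The 16 genes of the rule were not tested. The p-values of this test measure only the spread between the 4 libraries. On counts simulated from these sums, 100% of genes raised by 2 on the log2 scale, 86% of those raised by 1, 62% of those lowered by 1 and 88% of those lowered by 2 were called, and 0.085% of unchanged genes. Treatments, and tissues, were also tested over the 4 sums of Gfap-high cells with the other factor as a block (same tool and threshold, 7497 genes, 1 residual degree of freedom), and on counts simulated for the treatment fit 94% of genes raised by 2 on the log2 scale, 26% of those raised by 1, 16% of those lowered by 1, 46% of those lowered by 2 and 0% of unchanged genes were called. Libraries were compared by ratios of CPM with exact conditional 95% intervals and shares with exact binomial (Clopper-Pearson) intervals (Python 3.11.15, numpy 2.4.6, scipy 1.17.1, pandas 2.3.3). Genes with at least 20 UMIs in a pair were counted, with a fold of 1.5 taken as higher or lower. A count of 0 was set at 3 UMIs for limits. Alternatives were other Gfap minima (2 and 5), 0 excluded genes, at least 6 astrocyte genes, at least 1000 genes with at most 10% mitochondrial UMIs, thinning to 3000 UMIs (leaving out 235, 145, 678 and 488 shallower astrocytes, of them 4, 2, 3 and 2 Gfap-high, in the DOCA-salt hippocampus, sham hippocampus, DOCA-salt cortex and sham cortex libraries), other scalings, weights, filters and denominators, and leaving out doublets, shared barcodes or each library.

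Between classes the text names the 12 highest and 12 lowest genes with an adjusted p under 0.05, the same sign in 4 libraries and at least 100 UMIs. Between libraries it names, among genes with at least 50 UMIs, the 4 highest and 4 lowest of each pair and the 8 highest and 8 lowest of both pairs together, by the interval bound nearest to 1. Mitochondrial, ribosomal, haemoglobin, sex-linked, predicted and foreign-class genes were not named by size, list members were named freely, and a few genes that these rules reach are not reported here. The members and lists were chosen with earlier results of these data known. Promoters are RefSeq windows on GRCm38.p6.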

Additional observations from a re-analysis of the deposited data

Results flagged for a closer look

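Some genes of the Gfap-high cells were higher in 1 tissue or treatment and lower in the other, with both counting intervals clear of 1. With 1 library per group these differences were not tested, and the hippocampus values rest on the 23 cells of hippocampus sham. The DOCA-salt to sham log2 ratio of Myoc was 1.42 in hippocampus and -2.55 in cortex, that of Vim 0.79 and -0.92, and that of Fabp7 0.96 and -0.38. In hippocampus the ratios of Myoc, Vim and Fabp7 were -0.029, -0.17 and -0.58 after thinning and -0.87, -0.18 and -0.29 with no limit on excluded genes, on the same side as in cortex. The tetraspanin Cd9 had 0.46 in hippocampus and -0.40 in cortex, the lipid carrier Clu 0.10 and -0.094, and the matrix protein Sparcl1 0.12 and -0.24. Lower in hippocampus DOCA-salt and higher in cortex DOCA-salt, each against sham, were Il33 with log2 ratios of -1.23 in hippocampus and 0.47 in cortex, Ptgds with -0.46 and 0.38, Mfge8 with -0.45 and 0.47, and the sterol synthesis enzyme Msmo1 with -0.38 and 0.34. Glul had -0.13 and 0.11 in those tissues, and the protease inhibitor Cst3 -0.14 and 0.15. The hippocampus to cortex log2 ratio of Myoc was 0.86 in DOCA-salt and -3.11 in sham, and that of Sparcl1 0.066 and -0.29. That of Myoc in DOCA-salt was -0.50 after thinning and -0.28 with no limit on excluded genes, on the same side as in sham. A single cell gave 103 of the 650 Myoc UMIs of cortex sham.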

How the results depend on the processing

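The setting that turned the most directions between libraries was thinning. Of 174 gene ratios between libraries computed after thinning, 15 turned direction and 63 left the counting interval of the main setting. That label leaves out the counting error of the thinned ratio. Thinned sums rest on 77, 28, 23 and 45 cells in the DOCA-salt hippocampus, sham hippocampus, DOCA-salt cortex and sham cortex libraries. A stricter cell filter, scaling by the median ratio, which was near 1, and leaving out shared barcodes changed 0 of 193 ratios. Few members carried a shared barcode, 0 or 1 of a library in each pair. Leaving out Scrublet doublets changed 0 as well, which was fixed in advance because 0 members were marked. Among 68 genes called between Gfap-high and other astrocytes, 54 kept their call after thinning, 56 to 60 without 1 library, 48 of 66 without the cells of at least 10 Gfap UMIs, 29 with no library block and 3 of 56 with 0 excluded genes, where 4, 1, 3 and 5 members remained and gene ratios between libraries were not computed. Without 1 library in turn, 262 to 289 genes were higher and 146 to 200 lower. The cells of at least 10 Gfap UMIs were left out, the limit on excluded genes was lifted, cells were given equal weight in the fit between classes, and treatments and tissues were tested over 4 libraries, only after the data had been seen. No paired analysis was possible because the labels give the libraries no shared replicate numbers, while the fit between classes has the library as a block and the fits over the 4 libraries the tissue or the treatment. Without any 1 library those fits over 4 libraries have no residual degree of freedom and were not run. With no minimum of UMIs per pair, 2681 to 5538 genes passed 1.5-fold in a pair and direction, against 604 to 1035 with the minimum. The cause of each shift was not tested. Depth limits the hippocampus sham values, which rest on 176439 UMIs of 23 cells. With at least 2 Gfap UMIs, the share was 14.1%, 13%, 5.65% and 6.51% in the DOCA-salt hippocampus, sham hippocampus, DOCA-salt cortex and sham cortex libraries, and over 4 libraries 24 genes were higher and 52 lower in DOCA-salt than in sham. There over 4 libraries 83 genes were higher and 75 lower in hippocampus than in cortex, and the fibrous list ratio was 0.766 for DOCA-salt to sham in cortex and 0.624 for hippocampus to cortex in sham. The neural stem cell list ratio was 1.97 for hippocampus to cortex in DOCA-salt. With at least 5 Gfap UMIs, the share was 2.25%, 2.28%, 0.583% and 1.19% in the DOCA-salt hippocampus, sham hippocampus, DOCA-salt cortex and sham cortex libraries, and the share ratio of DOCA-salt to sham in hippocampus was 0.988. There the share ratio of DOCA-salt to sham in cortex was 0.491, and over 4 libraries 2 genes were higher and 0 lower in DOCA-salt than in sham. Over 4 libraries 3 genes were higher and 1 lower in hippocampus than in cortex, and the fibrous list ratio was 1.63 for DOCA-salt to sham in hippocampus, 0.733 for DOCA-salt to sham in cortex and 0.467 for hippocampus to cortex in sham. The immediate early list ratio was 3.11 for DOCA-salt to sham in hippocampus and 1.91 for DOCA-salt to sham in cortex, and the corticosteroid list ratio was 0.479 for DOCA-salt to sham in hippocampus and 0.580 for DOCA-salt to sham in cortex. The log2 ratio of hippocampus to cortex in sham turned to 1.07 for Hes5 and 0.31 for Mfge8. With cells thinned to 3000 UMIs, the share was 0.741% and 1.65% in cortex DOCA-salt and cortex sham, and the share ratio of DOCA-salt to sham in cortex was 0.449. In the same setting the share ratio of hippocampus to cortex in DOCA-salt was 8.59, and the share ratio of hippocampus to cortex in sham was 2.94. There 471 genes were lower in Gfap-high cells, and over 4 libraries 3 genes were higher and 2 lower in DOCA-salt than in sham. Over 4 libraries 4 genes were higher and 4 lower in hippocampus than in cortex, and the fibrous list ratio was 0.866 for DOCA-salt to sham in hippocampus, 0.740 for DOCA-salt to sham in cortex, 0.722 for hippocampus to cortex in DOCA-salt and 0.617 for hippocampus to cortex in sham. The immediate early list ratio was 1.41 for DOCA-salt to sham in hippocampus and 1.06 for DOCA-salt to sham in cortex, and the neural stem cell list ratio was 1.18 for hippocampus to cortex in DOCA-salt. The log2 fold change against other astrocytes turned to 0.11 for Cryab, and the log2 ratio of DOCA-salt to sham in hippocampus turned to -0.044 for Dusp1, -0.58 for Fabp7, -0.27 for Jund, -0.72 for Klf4, -0.029 for Myoc, 1.13 for Nkain2 and -0.17 for Vim. The log2 ratio of DOCA-salt to sham in cortex turned to -0.29 for Agt, -0.28 for Fos and -0.032 for Jun, and the log2 ratio of hippocampus to cortex in DOCA-salt turned to -0.22 for Enpp2, -0.48 for Igfbp5, -0.50 for Myoc, 0.15 for Paqr7 and -0.35 for Vim. With 0 excluded genes, the share was 2.82%, 1.35%, 0.548% and 1.22% in the DOCA-salt hippocampus, sham hippocampus, DOCA-salt cortex and sham cortex libraries, and the share ratio of DOCA-salt to sham in cortex was 0.450. There the share ratio of hippocampus to cortex in DOCA-salt was 5.14, and 3 genes were higher in Gfap-high cells. In this case 2 genes were lower in Gfap-high cells, and the log2 fold change against other astrocytes turned to -0.18 for Aldoc, 0.50 for Apod, -0.21 for Apoe, -0.16 for Clu, -0.20 for Fxyd1, -0.048 for Glul, -0.50 for Hmgcs1, -0.14 for Id2 and -0.076 for Stat3. With no limit on excluded genes, the share was 15.6%, 9.59% and 3.23% in hippocampus DOCA-salt, hippocampus sham and cortex DOCA-salt, and 877 genes were higher in Gfap-high cells. There 1246 genes were lower in Gfap-high cells, and over 4 libraries 73 genes were higher and 132 lower in DOCA-salt than in sham. Over 4 libraries 400 genes were higher and 300 lower in hippocampus than in cortex, and the fibrous list ratio was 0.792 for DOCA-salt to sham in hippocampus, 0.679 for DOCA-salt to sham in cortex, 0.935 for hippocampus to cortex in DOCA-salt and 0.801 for hippocampus to cortex in sham. The immediate early list ratio was 1.18 for DOCA-salt to sham in hippocampus and 1.12 for DOCA-salt to sham in cortex, and the neural stem cell list ratio was 1.52 for hippocampus to cortex in sham. The log2 fold change against other astrocytes turned to -0.12 for Cd59a and 0.057 for Ctnnd2, and the log2 ratio of DOCA-salt to sham in hippocampus turned to -0.29 for Fabp7, -0.71 for Klf4, -0.87 for Myoc and -0.18 for Vim. The log2 ratio of hippocampus to cortex in DOCA-salt turned to -0.28 for Myoc. With at least 6 astrocyte genes, the fibrous list ratio was 0.662 for DOCA-salt to sham in cortex, and the immediate early list ratio was 1.95 for DOCA-salt to sham in hippocampus and 1.81 for DOCA-salt to sham in cortex. There the neural stem cell list ratio was 1.49 for hippocampus to cortex in DOCA-salt and 1.47 for hippocampus to cortex in sham. Over all kept barcodes, the share was 0.623%, 0.205%, 0.555% and 0.568% in the DOCA-salt hippocampus, sham hippocampus, DOCA-salt cortex and sham cortex libraries, and the share ratio of DOCA-salt to sham in hippocampus was 3.04. In the same setting the share ratio of hippocampus to cortex in DOCA-salt was 1.12, and the share ratio of hippocampus to cortex in sham was 0.360. Without the cells of at least 10 Gfap UMIs, 151 genes were higher in Gfap-high cells, and 163 genes were lower in Gfap-high cells. In this case over 4 libraries 23 genes were higher and 40 lower in DOCA-salt than in sham, and over 4 libraries 81 genes were higher and 55 lower in hippocampus than in cortex. The fibrous list ratio was 1.11 for DOCA-salt to sham in hippocampus, 0.859 for DOCA-salt to sham in cortex, 0.974 for hippocampus to cortex in DOCA-salt and 0.752 for hippocampus to cortex in sham, and the neural stem cell list ratio was 1.91 for hippocampus to cortex in DOCA-salt. The log2 ratio of hippocampus to cortex in DOCA-salt turned to -0.37 for Igfbp5. With equal weight per cell, the fibrous list ratio was 0.465 for hippocampus to cortex in sham, and the neural stem cell list ratio was 1.15 for hippocampus to cortex in sham. With no library block, 82 genes were higher in Gfap-high cells, and 32 genes were lower in Gfap-high cells. With DESeq2, 153 genes were lower in Gfap-high cells.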

Other observations

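Beyond the lists above, Hspb8 (1.44) was the 1 of 12 chaperone genes that was higher in Gfap-high than in other astrocytes by edgeR's quasi-likelihood test, and Cryab (-0.40) the 1 that was lower. Of 12 cholesterol synthesis genes Hmgcs1 (0.49) was higher, of 3 measured genes of the protective-type (A2) list S100a10 (1.11), and of 9 genes of the angiotensin and salt list Fxyd1 (0.87), a sodium pump regulator like Fxyd6. Of 15 matrix genes Tnc was higher and Timp3 (-0.38) and Sparc (-0.50) lower, of 7 Notch genes the ligand Jag1 (-1.27) was lower, and of 12 corticosteroid genes Sgk1 (-0.84). Over all genes 3.87% were higher and 2.77% lower, so a single call says little about its list. Sgk1 was 13.7 to 79.3 CPM in Gfap-high cells and 33.9 to 82.5 CPM in the others. Jag1 was 3.90 to 13.3 CPM in Gfap-high cells and 6.77 to 37.5 CPM in the others. Cryab and Sgk1 lost their calls without Scrublet doublets and after thinning, which put the log2 fold change of Cryab at 0.11. Timp3, Jag1 and Fxyd1 lost theirs without the 32 cells of at least 10 Gfap UMIs. Without hippocampus DOCA-salt Timp3 and Jag1 lost their calls, without hippocampus sham Jag1, without cortex DOCA-salt Sgk1, and without cortex sham Timp3, Sgk1 and Hmgcs1. Of genes of other cell classes, the oligodendrocyte lineage genes Sox10 and Olig1 (of 5 precursor genes tested), the endothelial gene Ly6c1 (of 6) and the pericyte gene Vtn (of 5 mural genes) were lower in Gfap-high cells. Sox10 and Ly6c1 were not called after thinning, by DESeq2 or without each library but hippocampus sham, nor Vtn by DESeq2 or without either cortex library. Of 10 microglial, 4 ependymal, 5 neuronal, 2 fibroblast genes and 1 choroid plexus gene, 0 passed edgeR's test at an adjusted p under 0.05, 0 did at an unadjusted p under 0.05, and DESeq2 called 0. Levels of these genes are not independent of the rule's limit on excluded genes. With no such limit 10 of 10 microglial, 6 of 8 ependymal and 6 of 7 choroid plexus genes were lower, against 1246 of 14098 genes tested.

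Of 116 kept barcodes with at least 10 Gfap UMIs, 79 had more than 2 excluded genes, 5 had fewer than 4 astrocyte genes, and 32 were members. Members held 15.8% of the 12126 Gfap UMIs of all kept barcodes. Of the 13 cells with both a Myoc and a Thbs4 UMI, 6 were in hippocampus DOCA-salt, 1 in hippocampus sham, 0 in cortex DOCA-salt and 6 in cortex sham. The next genes most like Gfap over thinned astrocytes were Ckb, Gstm1, C4b, S100a1 and Ldhb, with a lowest Spearman correlation of 0.0702 for Ldhb.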
